A study of Mus musculus with 17 samples.

Results

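The genes of sterol and fatty acid synthesis were compared between colons of control mice and of mice exposed to pyridostigmine bromide (PB). They are 33 listed mouse genes, namely enzymes of both pathways and the regulators and targets of the sterol-sensing SREBP system, and they were found in the count table by gene symbol. All 33 were among its 23719 entries, and all 33 passed the filter on low counts, as did 14146 entries in all. By role, 19 genes belong to a sterol arm (the mevalonate steps, the steps from squalene to cholesterol, and a sterol carrier), 10 to a fatty acid arm (supply of acetyl units, chain synthesis, elongation and desaturation), and 4 regulate both.

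The study modelled Gulf War illness (GWI) by giving male C57BL/6 mice, 32 to 34 weeks old, PB in the drinking water at 2 mg/kg for 7 days, followed by 21 days of recovery, with tissue taken at day 30. PB blocks acetylcholinesterase and was taken by soldiers as a pretreatment against nerve agents. Control mice, of the same sex and strain, were given water. RNA of 9 control and 8 GWI colons was sequenced. The labels call the samples replicates, and each is taken here as 1 mouse, though short codes in the labels share undefined first parts, as in Control replicates 3, 4 and 5. The methods of the study call the tissue colon explants, and the sources do not say which layers they held.

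Between 16293537 and 20741212 counts were assigned to genes per mouse. At this depth even the lowest member value rested on 254 counts (Fads2 in Control replicate 9). Counting error was not compared with the spread between mice. The colon label was checked against markers. All 11 listed markers of colon epithelium passed the filter, led by Car1, and so did all 7 goblet cell markers, led by Muc2. The 7 markers of pancreas summed to at most 0.31 CPM (counts scaled to library size) in any mouse, and none of them passed. Of 9 small intestine markers, led by Fabp2, 6 passed the filter. Their sum was 713.6 to 2965 CPM in controls, and 709 to 1514 after PB, with 1 gene higher and 1 lower. Log2 fold changes of the 6, GWI minus Control, ran from -4.404 to 0.925, and what lay behind this range was not tested. Of 6 liver markers 2 passed the filter, and of 10 markers of squamous and sebaceous skin 3 did.

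Among the mice, 2 controls stood apart. Control replicate 9 had the largest share of its counts in its 10 most abundant genes, 23.1% against 9.72% to 17.3% in the other mice, led by the mitochondrial gene mt-Co1 at 12.5%. Its values also followed gene length and GC content most strongly. Control replicate 1 lay at one end of the first principal component of all genes, at -71.98, with Control replicate 9 at the other, at 58.22. Many results below are therefore also given without them.

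Cells make cholesterol from acetyl-CoA through mevalonate, the isoprenoid units and squalene, and make fatty acids from the same acetyl-CoA through malonyl-CoA. The SREBP transcription factors switch on both pathways. They are held in the endoplasmic reticulum by the escort protein SCAP and the anchor INSIG when sterols are plentiful, and are carried to the Golgi and cut free when sterols run low. SREBP2, from Srebf2, acts mainly on sterol genes, and SREBP1c, from Srebf1, mainly on fatty acid genes. In the gut, epithelial cells renew their membranes from both pathways, and fat cells of the adjoining mesentery are rich in the enzymes of fatty acid synthesis.

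In the fatty acid arm 6 of 10 genes, and in the sterol arm 2 of 19, were higher in GWI colons, and the difference between the arms was not tested. By role the 6 were 2 of 2 genes of chain synthesis, 3 of 5 of elongation and desaturation, and 1 of 3 of acetyl supply. Acetyl units feed both pathways, so placing their supply in the fatty acid arm was a choice. At an adjusted p under 0.05 in edgeR's quasi-likelihood test, adjusted over all genes tested by the Benjamini-Hochberg method, 11 of the 33 members were higher, where 13.4% of all genes were higher, 13.5% were lower and 26.8% differed in either direction. Of the regulators, 3 of 4 were higher. Lower calls numbered 0 among the 33, with 1 member, Acat2, lower at an unadjusted p under 0.05. DESeq2 also gave 0 lower members, and limma-voom with sample weights gave 2, Acat2 and Fads1. The sterol arm had 3 of 19 genes higher with DESeq2, which called 2174 of all genes higher and 2405 lower (28.1% in either direction). With limma-voom 8 of 19 sterol genes and 18 of the 33 members were higher. That tool called 8091 of all genes, or 57.2%, of which 3911 were higher and 4180 lower. The median log2 fold change, GWI minus Control, was 0.54 in the fatty acid arm, 0.47 for the regulators and 0.11 in the sterol arm, and that of all genes tested was -0.06. With the score of smooth muscle minus epithelium markers as a covariate, 3 of 10 fatty acid genes were higher. In the sterol arm 1 gene was then higher and 4 were lower (Acat2, Idi1, Cyp51 and Msmo1). Over all genes that fit gave 1376 higher and 2002 lower, 23.9% in either direction. With upper-quartile scaling the calls over all genes split into 1214 higher and 2992 lower, where the main scaling gave 1889 and 1903. That scaling lowered the sterol arm median to 0.01 and the fatty acid arm median to 0.44, with 6 of 10 fatty acid genes higher. Under it Srebf1 (0.439, adjusted p = 0.0662) and Sc5d (0.157, adjusted p = 0.154) did not pass, leaving 2 of 4 regulators, and Acat2 was lower (-0.461, adjusted p = 0.0235). Srebf1 did not pass with library size alone either (adjusted p = 0.076).

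**Figure D1:**
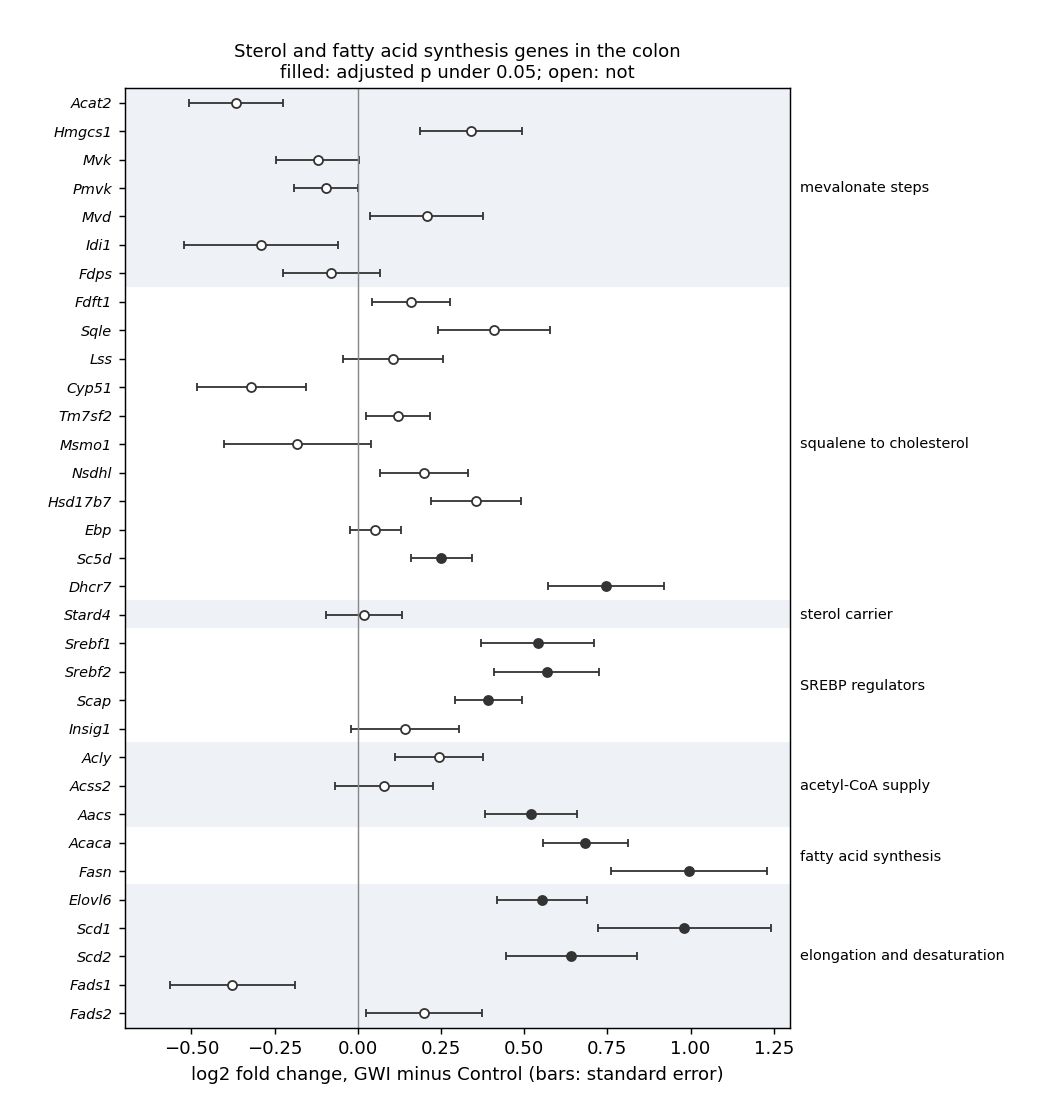
Log2 fold change of each of the 33 genes, GWI minus Control, with its standard error as a bar, grouped by role. Filled points passed the adjusted p threshold of 0.05: 6 of 10 in the fatty acid arm, 3 of 4 regulators and 2 of 19 in the sterol arm.

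The arms were also scored in each mouse. A score was made for each mouse as the mean log2 CPM over the genes of an arm, set to a mean of 0 in the control mice. The fatty acid arm score ran from -0.55 through a median of 0.09 to 0.29 in control mice, and from 0.33 through 0.41 to 0.68 in GWI mice. All 8 GWI mice lay above every control mouse, with GWI replicates 4 and 7 highest and Control replicate 9 far below the rest. The sterol arm score ran from -0.41 to 0.45 in controls, with a median of -0.04, and in the GWI group from -0.12 to 0.37, with a median of 0.12. Here the groups overlapped over most of their range, and the highest mouse of all was Control replicate 8. The regulators lay between -0.58 and 0.38 in control mice and between 0.34 and 0.53 in GWI mice, with 7 of 8 GWI mice above every control. The fatty acid score minus the sterol score had medians of 0.44 in GWI and 0.10 in control mice, and 5 of 8 GWI mice were above every control. GWI replicates 2, 5 and 6 lay within the control range, with GWI replicate 5, at 0.001, below the control median.

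**Figure D2:**
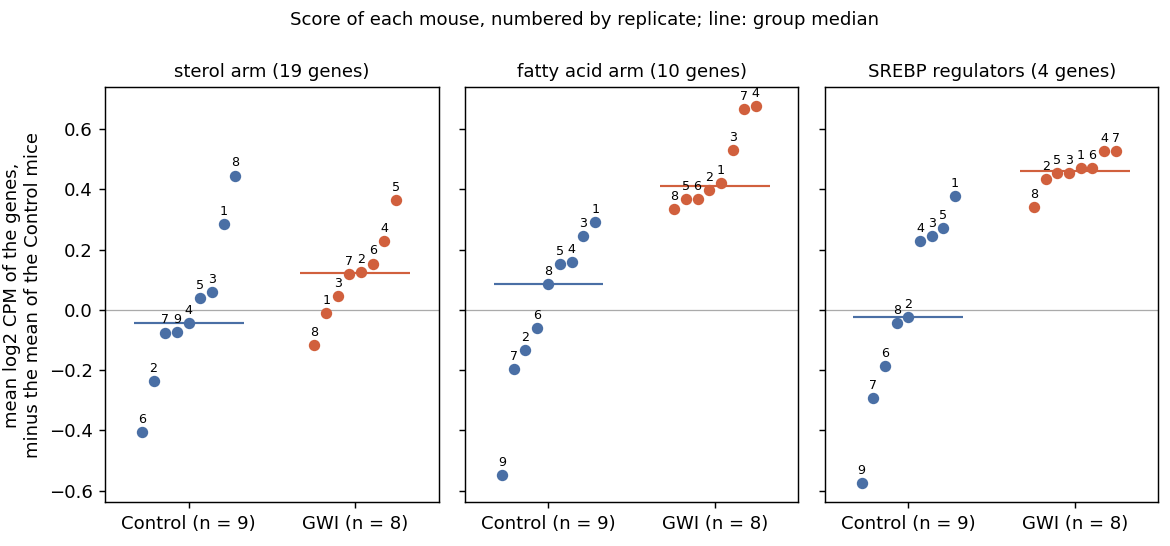
Scores of the sterol arm, the fatty acid arm and the SREBP regulators in each mouse, as mean log2 CPM minus the control mean, with a line at the group median and replicate numbers beside the points. The 8 GWI mice sit above every control mouse for the fatty acid arm, from 0.33 to 0.68, and overlap with the controls for the sterol arm.

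Both enzymes that build the fatty acid chain rose. Acaca encodes acetyl-CoA carboxylase, which makes malonyl-CoA in the committed step. Its level was 29.9 CPM in the lowest, 49.0 in the median and 65.1 in the highest control mouse, and 65.5, 73.4 and 98.1 in GWI mice. The groups did not overlap: the lowest GWI mouse, replicate 5, stood just above Control replicate 1. The log2 fold change was 0.68 (SE 0.13, adjusted p = 0.00189). Such a complete separation upward was found for 1.83% of all genes tested, and a complete separation downward for 0.523%. Among the 33 members it was found for Acaca and Dhcr7, both upward. Fasn, fatty acid synthase, ran through 56.8, 129 and 223 CPM in control mice and through 206, 243 and 433 in GWI mice. Only Control replicate 1 reached into the GWI range, GWI replicates 7 and 4 were far above the others, and Control replicate 9 was the lowest. Its log2 fold change was 0.99 (SE 0.23, adjusted p = 0.00654).

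Among the enzymes that elongate and desaturate fatty acids, Elovl6, which lengthens palmitate, was measured at 84.7, 103 and 172 CPM (lowest, median, highest) in control mice and at 113, 158 and 187 in GWI mice. Control replicate 1 stood alone among the controls, whose next highest value was 112. The log2 fold change of Elovl6 was 0.55 (SE 0.13, adjusted p = 0.00779), and 0.67 without Control replicate 1. With the score of smooth muscle minus epithelium markers as a covariate it was 0.351 and did not pass (adjusted p = 0.179). Scd1 and Scd2 encode stearoyl-CoA desaturases, which introduce the first double bond. Scd1 ran through 57.7, 93.8 and 129 CPM in control mice and through 93.5, 157 and 386 in GWI mice. GWI mice were spread widely, from replicates 5, 1 and 2 within the control range to replicate 7 far above all others. The log2 fold change was 0.98 (SE 0.26, adjusted p = 0.0120), and 0.73 without GWI replicate 7 (adjusted p = 0.0289). It was 0.488 with adipocyte markers as a covariate (adjusted p = 0.0489), and Scd1 did not pass, at little smaller log2 fold changes, with the muscle and epithelium covariate (0.854, adjusted p = 0.125) or the replicate block (0.866, adjusted p = 0.0841). Scd2 ran through 286, 656 and 727 CPM in control mice and through 698, 813 and 1152 in GWI mice, with a log2 fold change of 0.64 (SE 0.20, adjusted p = 0.0236). For Scd2, 6 of 8 GWI mice were above every control, while 6 controls were below every GWI mouse and Control replicates 1, 3 and 4 lay within the GWI range.

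The front-end desaturases of polyunsaturated fatty acids did not pass the test, and the direction of Fads1 depended on the fit, as given with the covariates below. Fads1, the delta-5 desaturase, ran through 25.9, 58.3 and 91.0 CPM in control mice and through 35.6, 44.4 and 54.0 in GWI mice. All 8 GWI mice lay below the control median, but inside the control range. Its log2 fold change was -0.38 (SE 0.19, adjusted p = 0.138), and -0.46 without Control replicate 9 (adjusted p = 0.0270). Fads2, the delta-6 desaturase, had a log2 fold change of 0.20 (adjusted p = 0.398), and 0.107 without Control replicate 9. Both genes lie on chromosome 19, as do Scd1 and Scd2.

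Of the genes that supply acetyl units, Aacs rose. It encodes acetoacetyl-CoA synthetase, which turns the ketone body acetoacetate into a precursor for both pathways. Aacs ran through 47.2, 86.2 and 102 CPM in control mice and through 81.6, 113 and 134 in GWI mice. All GWI mice but replicate 8 were above every control mouse. Its log2 fold change was 0.52 (SE 0.14, adjusted p = 0.0123). Acly, the ATP citrate lyase that releases acetyl-CoA from citrate, had a log2 fold change of 0.24 (adjusted p = 0.171), and all 8 GWI mice were above the control median. Acss2, which makes acetyl-CoA from acetate, gave 0.08 (adjusted p = 0.71), and between 0.029 and 0.144 with 1 mouse left out.

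Of the regulators, Srebf1, Srebf2 and Scap were higher and Insig1 did not pass. Srebf1 ran through 32.3, 71.6 and 108 CPM in control mice and through 99.3, 111 and 119 in GWI mice, and Srebf2 through 89.7, 183 and 272 CPM and through 243, 276 and 292. For both genes the GWI mice were close together within the upper part of the control range or above it, with 6 of 8 above every control for Srebf1 and 4 of 8 for Srebf2. The lowest control value was that of Control replicate 9. The log2 fold changes were 0.54 for Srebf1 (SE 0.17, adjusted p = 0.0260) and 0.57 for Srebf2 (SE 0.16, adjusted p = 0.0150). Without Control replicate 9 they were 0.45 and 0.49. Srebf1 did not pass in 3 of 30 other fits. Scap, the escort, ran through 34.2, 57.1 and 63.8 CPM in control mice and through 62.0, 71.7 and 80.4 in GWI mice. Its log2 fold change was 0.39 (SE 0.10, adjusted p = 0.00998), and 0.334 without Control replicate 9, and 7 of 8 GWI mice were above every control. Insig1, the anchor and itself a target of SREBP, ran through 72.2, 145 and 184 CPM in control mice and through 117, 149.98 and 176 in GWI mice. The GWI mice lay wholly within the control range of Insig1, with a log2 fold change of 0.14 (SE 0.16, adjusted p = 0.519). That value was 0.061 without Control replicate 6 and 0.225 without Control replicate 1.

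**Figure D3:**
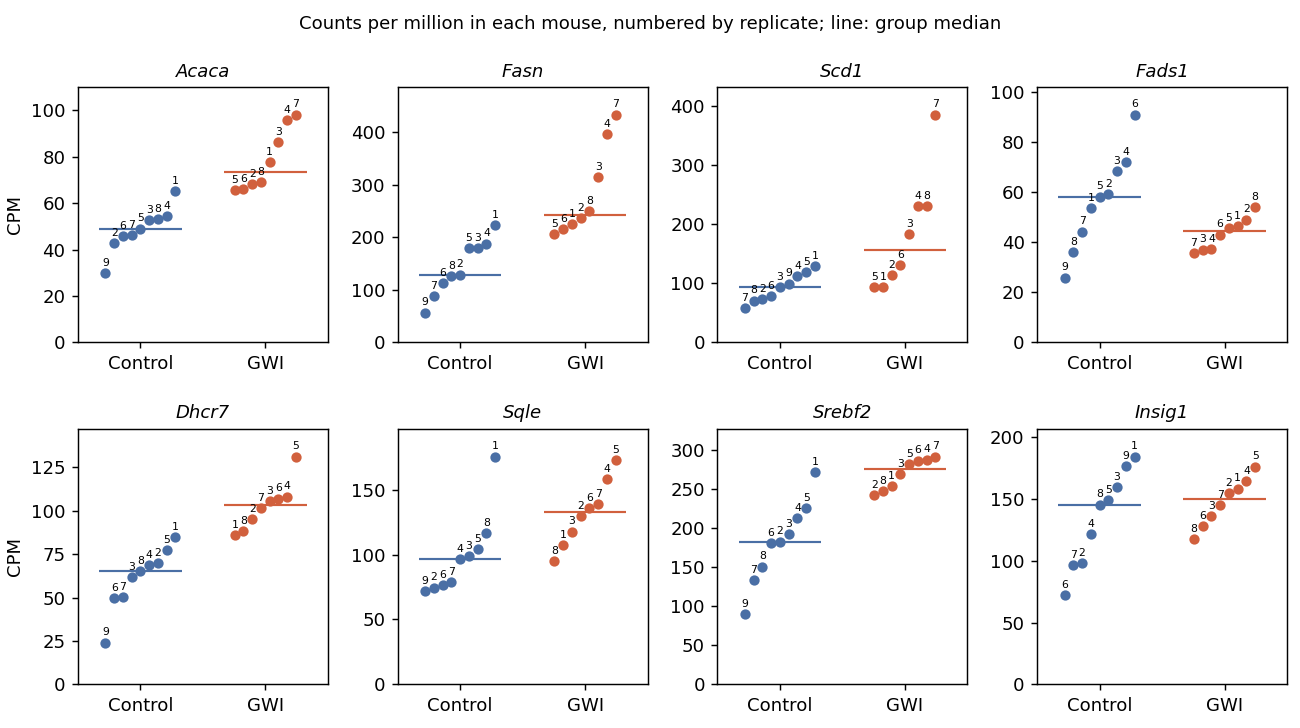
CPM in each control mouse (left) and GWI mouse (right) for 8 members, on linear axes from 0, with a line at the group median and replicate numbers above the points. Acaca and Dhcr7 separate the groups completely, Fasn, Scd1 and Srebf2 overlap in part, and Fads1, Sqle and Insig1 overlap over most of their range.

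In the sterol arm, the mevalonate steps gave 0 calls among 7 genes with edgeR, with Hmgcs1 higher and Acat2 lower at an unadjusted p under 0.05. DESeq2 gave 0 as well, and limma-voom gave those same 2 genes. Their median log2 fold change was -0.10, and 5 of 7 values were negative. Hmgcs1, the synthase that makes HMG-CoA and a classical SREBP target, ran through 252, 366 and 509.6 CPM in control mice and through 329, 467 and 589 in GWI mice. Its log2 fold change was 0.34 (SE 0.15, adjusted p = 0.103), and 0.43 without Control replicate 1 (adjusted p = 0.0241). Acat2, the cytosolic thiolase of the first step, ran through 30.1, 38.2 and 72.8 CPM in control mice and through 27.1, 32.9 and 34.9 in GWI mice. No GWI mouse reached the control median of Acat2, and Control replicate 8 stood far above the rest. Its log2 fold change was -0.37 (SE 0.14, adjusted p = 0.0602), and -0.22 without that mouse. Mvk and Pmvk, the kinases of mevalonate and phosphomevalonate, gave -0.12 (adjusted p = 0.478) and -0.10 (adjusted p = 0.47). These were -0.043 and -0.045 without Control replicate 8, and -0.186 and -0.138 without GWI replicate 5. Idi1, the isomerase of the isoprenoid unit, gave -0.29 (adjusted p = 0.350) and -0.111 without Control replicate 9. Fdps, which joins the units into farnesyl diphosphate, gave -0.08 (adjusted p = 0.699), and Mvd, the decarboxylase, 0.21 (adjusted p = 0.370), or 0.122 without that mouse.

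Between squalene and cholesterol, the late enzyme Dhcr7 was the gene that differed most clearly. It reduces 7-dehydrocholesterol, the last intermediate of the Kandutsch-Russell route. Dhcr7 ran through 24.0, 65.1 and 84.7 CPM in control mice and through 86.0, 104 and 131 in GWI mice, so that the groups did not overlap. The lowest value was that of Control replicate 9 and the highest that of GWI replicate 5. The log2 fold change was 0.75 (SE 0.17, adjusted p = 0.00642), and 0.65 without Control replicate 9. Sc5d, the desaturase just before Dhcr7, ran through 80.7, 101 and 119 CPM in control mice and through 97.1, 118 and 136 in GWI mice, with a log2 fold change of 0.25 (SE 0.09, adjusted p = 0.0472). This call lay close to the threshold: it held in 5 of 17 fits with a single mouse removed, and without GWI replicate 7 the adjusted p was 0.0943.

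Sqle, the squalene epoxidase that is rate-limiting in this branch, ran through 71.9, 96.7 and 176 CPM in control mice and through 95.2, 133 and 173 in GWI mice. The highest mouse of all was Control replicate 1, well above the next control at 117, and 7 of 8 GWI mice were above the control median. The log2 fold change was 0.41 (SE 0.17, adjusted p = 0.0756). Without Control replicate 1 it was 0.56 (adjusted p = 0.00362). Hsd17b7, a reductase of the demethylation complex, gave 0.36 (adjusted p = 0.0566), and 0.43 without that mouse (adjusted p = 0.0141). Leaving out Control replicate 1 thus raised the sterol arm from 2 to 5 of 19 genes higher, by Hmgcs1, Sqle and Hsd17b7, while 34.2% of all genes differed in that fit. With Control replicates 1 and 9 both left out it was also 5 of 19, with 6 of 10 fatty acid genes higher, Fads1 lower and 39.3% of all genes differing.

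The other genes of this branch did not pass in the main edgeR fit, with values in both directions. Cyp51 and Msmo1 were lower with the muscle and epithelium covariate given below. With limma-voom, Tm7sf2 (adjusted p = 0.0177), Nsdhl (adjusted p = 0.033) and Stard4 (adjusted p = 0.0363) were higher. Cyp51, the lanosterol demethylase, gave a log2 fold change of -0.32 (adjusted p = 0.148), and 1 of 8 GWI mice was above its control median. Msmo1, the methyl sterol oxidase, gave -0.18 (adjusted p = 0.549), and -0.02 without Control replicate 9, which held its highest value. Fdft1, squalene synthase, gave 0.16 (adjusted p = 0.308), Lss, lanosterol synthase, 0.11 (adjusted p = 0.616), and Tm7sf2, a sterol reductase, 0.12 (adjusted p = 0.350). Nsdhl, a sterol dehydrogenase, gave 0.20 (adjusted p = 0.259), and Ebp, a sterol isomerase, 0.05 (adjusted p = 0.620). Over the fits that left out 1 mouse, Lss ranged from 0.053 to 0.243 and Tm7sf2 from 0.074 to 0.168. Fdft1 ranged there from 0.103 to 0.223 and Ebp from 0.019 to 0.083. Stard4, a cytosolic sterol carrier induced by SREBP, gave 0.02 (adjusted p = 0.912), with 409 CPM in Control replicate 9 and at most 275 CPM in any other mouse.

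Control mice varied more than GWI mice in almost every member. The SD of log2 CPM was larger in the control group for 32 of 33 members, and for 82.8% of all genes tested. The median SD over the members was 0.37 in control mice and 0.21 in GWI mice. Without Control replicates 1 and 9 the SD was still larger in controls for 26 of 33 members, where it was so for 59.0% of all genes. By arm these were 5 of 10 fatty acid genes, 17 of 19 sterol genes and 4 of 4 regulators. Single mice held many of the extremes: among controls, replicate 9 was lowest for 15 members and replicate 6 for 14, and replicate 1 was highest for 14 and replicate 8 for 11. Control replicates 6 and 8 marked the ends of the sterol arm, and Control replicates 9 and 1 those of the fatty acid arm and of the regulators. Among GWI mice, replicate 5 was highest for 16 members and replicate 8 lowest for 15.

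Levels between genes were compared as mean CPM per kb of exon sequence. In control mice Scd2 was the most abundant member at 99.8, followed by Hmgcs1 at 76.5, Cyp51 at 53.25, Stard4 at 46.2 and Insig1 at 43.2. In GWI mice Scd2 stood at 156 and Hmgcs1 at 96.8. Acaca was the least abundant on this scale, at 2.85 in control and 4.59 in GWI mice. Its exon sequence over all transcripts is 17.074 kb, while its longest transcript has 9513 bases, so its value depends on the length used. On this scale Fasn went from 13.0 to 26.0, and Srebf2, at 25.4 and 37.65, stood above Srebf1, at 13.5 and 19.6.

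Some member counts share sequence with other genes. Of the words of 100 bases in the longest Acaca transcript, 42.8% also occur in transcripts of Gm5182, which was not analysed here. For Acat2 the share was 35.3%, with Acat3, at most 0.66 CPM in any mouse, and with its neighbour Tcp1, whose mean was 218 CPM in control and 176 in GWI mice (CPM of these other genes by library size alone). For Idi1 it was 27.6%, with Gm48574 and other genes not analysed here. Scd1 shared 2.7% with its relatives. Fdft1 shares 18.3% of its exon length with Ctsb on the other strand, whose mean was 483 CPM in control and 592 in GWI mice. As the strand setting of the counting is not given in the sources used here, the value of Fdft1 is uncertain, and so to a lesser degree are those of Scap and Hmgcs1, with 13.2% and 12.1% of exon length under an opposite transcript. Fdps shares 26.7% of its exon length with Gm43738 and Tm7sf2 12.1% with Vps51, both on the same strand, so their values are uncertain too.

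Promoter letters were looked up for the members because the regulators among them act on promoters. RefSeq promoter windows on build GRCm38.p6, from 250 bases before to 50 after an annotated start, were found for 26 of the 33 members. Fdps, Fdft1, Sqle, Stard4, Scd1, Scd2 and Fads1 had none. The only Acaca window, chr11:84195188-84195487, lies inside the gene, which is annotated from 84129672, so its first promoter was not searched. Counts by arm therefore depend in part on which windows were available, and the arms were not tested against each other. Both strands were searched. The letters CCAAT of the NF-Y box, a frequent partner of SREBP, were present for 14 of 15 sterol arm genes and 3 of 7 fatty acid arm genes, and for 41.1% of all 27025 genes with windows. The GC box GGGCGG was present for 14 of 15 and 3 of 7, and for 38.2% of all genes. The SREBP core in its form TCACNCCAC was present for 1 member, Hmgcs1, and for 1.44% of all genes. Its shorter form TCACNCCA, which every match of the longer form contains, was present for Hmgcs1, Msmo1 and Srebf2, and for 4.97% of all genes. A match is a description of letters and not a shown binding site.

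The windows of these 3 genes are shown because they hold the core letters, and that of Fasn because its level differed between groups while its window holds CCAAT alone. Capitals mark TCACNCCA and CCAAT on either strand, so that CCAAT may read as ATTGG. The windows lie at chr13:119690101-119690400 (Hmgcs1, plus strand), chr8:64733529-64733828 (Msmo1, minus strand), chr15:82147019-82147318 (Srebf2, plus strand) and chr11:120824498-120824797 (Fasn, minus strand), and each is written 5′ to 3′ on the strand of its gene.
Hmgcs1: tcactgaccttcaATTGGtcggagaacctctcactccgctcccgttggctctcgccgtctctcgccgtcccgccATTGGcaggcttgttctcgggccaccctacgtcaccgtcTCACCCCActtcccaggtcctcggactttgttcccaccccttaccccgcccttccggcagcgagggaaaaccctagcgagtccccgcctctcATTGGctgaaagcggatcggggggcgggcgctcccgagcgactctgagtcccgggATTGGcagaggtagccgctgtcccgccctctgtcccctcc
Msmo1: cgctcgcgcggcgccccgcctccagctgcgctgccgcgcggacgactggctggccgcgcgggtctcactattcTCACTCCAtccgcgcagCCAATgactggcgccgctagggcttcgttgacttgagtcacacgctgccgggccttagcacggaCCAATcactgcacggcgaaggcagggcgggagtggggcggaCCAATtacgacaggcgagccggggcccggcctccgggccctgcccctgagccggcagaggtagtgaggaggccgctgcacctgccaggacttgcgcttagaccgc
Srebf2: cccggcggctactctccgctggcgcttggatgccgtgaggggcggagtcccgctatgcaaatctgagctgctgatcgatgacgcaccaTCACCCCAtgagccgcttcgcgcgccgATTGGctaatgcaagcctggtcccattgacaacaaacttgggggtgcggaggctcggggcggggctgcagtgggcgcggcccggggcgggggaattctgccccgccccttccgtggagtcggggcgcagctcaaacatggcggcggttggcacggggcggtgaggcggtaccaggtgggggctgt
Fasn: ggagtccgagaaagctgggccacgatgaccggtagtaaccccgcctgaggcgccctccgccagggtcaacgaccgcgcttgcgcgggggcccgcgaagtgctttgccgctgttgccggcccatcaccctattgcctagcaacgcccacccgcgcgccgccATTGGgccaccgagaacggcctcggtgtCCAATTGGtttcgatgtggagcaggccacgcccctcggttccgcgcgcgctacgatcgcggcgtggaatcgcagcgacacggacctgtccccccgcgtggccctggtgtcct

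Other genes of the same pathways, taken from fixed lists, are given for comparison. Their counts stand beside the 13.4% of all genes that were higher and the 13.5% that were lower, and nothing particular to a list is read from them. All GWI mice lay above every control for 1.83% of all genes and below for 0.523%. In these lists that was so upward for 1 of 25 sterol transport genes, 1 of 30 further fatty acid genes and 1 of 16 oxidation genes. Of 17 clock genes, 2 lay above and 1 below. Of 14 further genes of SREBP control, 5 were higher, and the median was 0.23. Among them were Mbtps1, the site-1 protease that first cuts SREBP (0.35, adjusted p = 0.00469), Nr1h2, which encodes the oxysterol receptor LXR beta (0.28, adjusted p = 0.0113), its partner Rxra (0.44, adjusted p = 0.0120) and Mlx (0.24, adjusted p = 0.0349). Of 25 tested genes of sterol uptake, transport and storage, 6 were higher and 2 lower. Npc1, which exports cholesterol from lysosomes, rose by 0.82 (adjusted p = 0.00120), the receptor gene Lrp1 by 0.88 with all 8 GWI mice above every control (adjusted p = 0.00490), and the oxysterol-binding proteins Osbp and Osbpl2 by 0.39 and 0.32. Ch25h, the cholesterol 25-hydroxylase, had a log2 fold change of -1.19 at no more than 1.27 CPM in any mouse, and Gramd1a, a sterol transfer protein, of -0.38.

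Of 14 genes that branch off after the isoprenoid units, 3 were higher and 1 lower. Icmt, which methylates prenylated proteins, and Pdss2 and Coq5 of ubiquinone synthesis had log2 fold changes of 0.33, 0.31 and 0.34, while Coq7, also of ubiquinone synthesis, had -0.69 (adjusted p = 0.00157). Of 30 tested further genes of fatty acid and triglyceride synthesis, 6 were higher and 1 lower, with a median of 0.21. These 7 are 23.3% of the list, where 26.8% of all genes differed. Lpin2, a phosphatidate phosphatase, had 0.93, and all 8 GWI mice were above every control (adjusted p = 0.000549). Fads3, the neighbour of Fads1 and Fads2, rose by 0.53, and Agpat2 and Dgat2, which add acyl chains on the way to triglyceride, by 0.44 and 0.80. Hacd1, a dehydratase of elongation, had -0.42. Among 6 genes that supply NADPH, G6pdx of the pentose phosphate pathway was higher (0.60, adjusted p = 0.0137).

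Of 16 tested genes of fasting and fatty acid oxidation, 6 were higher and 10 did not pass, and the median was 0.37. Hadha, of the mitochondrial trifunctional protein, had 0.63 (adjusted p = 0.00216) and was above every control in 8 of 8 GWI mice. Cpt1a, the gate for acyl chains into mitochondria, and Pdk4, a kinase that spares glucose, had 0.62 and 1.331. Clock genes differed as well, with 3 of 17 higher and 8 lower. Arntl, Npas2 and Nfil3 were higher by 1.72, 1.58 and 1.35, and Hlf, Ciart, Dbp and Bhlhe41 had -1.61, -1.14, -1.12 and -1.20. Times of tissue collection are not given in the sources used here, and the part of the clock in the lipid genes was not tested.

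Markers of several cell types differed between the groups, and their counts stand beside the 13.4% of all genes that were higher and the 13.5% that were lower. In bulk tissue, fewer cells of a type and less RNA per cell cannot be told apart. Of 10 smooth muscle markers, 7 were lower, with all 10 values negative and a median of -0.91. The lowest adjusted p were those of Tagln (-1.17), Mylk (-0.91), Synpo2 (-1.06) and Myh11 (-1.10), and Myh11 was the most abundant. The sum of the 10 markers was 3690 to 23920 CPM in controls, and 3658 to 11830 after PB. Of 11 markers of colon epithelium, 4 were higher, namely Cdh1 (0.62), Vil1 (0.64), Cdh17 (0.47) and Epcam (0.28), and the sum, led by Car1, was 18170 to 39840 CPM in controls, and 19550 to 37430 after PB. The 10 adipocyte markers were all positive, with a median of 0.94, and 2 passed, Pck1 (0.60) and Cidec (0.99). Pck1 was the most abundant of them at a median of 136 CPM in control mice. The adipocyte sum was 260.1 to 459 CPM in controls, and 259 to 1276 after PB. This sum gives most weight to Pck1 and did not follow the mean log2 score of the 10 markers in every mouse. GWI replicate 5 had a sum of 259.4 at a score of 0.16, and Control replicate 2 a sum of 272.3 at -1.94. The defining marker Adipoq was present in every mouse, from 0.40 CPM in the lowest control to 96.3 in the highest GWI mouse. Of 6 endothelial markers, led by Pecam1, 3 were lower, Emcn (-0.80), Tie1 (-0.83) and Kdr (-0.74), with all 6 negative and a median of -0.71. Their sum was 36.2 to 179 CPM in controls, and 44.8 to 92.9 after PB. Of 6 tested glial markers, 2 were lower, among them Foxd3 (-1.28), and Erbb3 (0.91), the most abundant, was higher. Their median was -0.86, and their sum was 195 to 413 CPM in controls, and 389.5 to 515 after PB. The 9 neuronal markers, led by Uchl1, were all negative with a median of -0.57, and 0 passed in edgeR, nor did any at an unadjusted p under 0.05. Their calls by other tools were not tabulated. Their sum was 73.7 to 555 CPM in controls, and 104 to 373 after PB. Of the goblet, fibroblast, immune and proliferation markers, 1 of 7, 1 of 7, 1 of 6 and 0 of 8 passed. The part of these other cell types in the lipid genes was not tested.

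The mice with the highest adipocyte sums were GWI replicate 7 at 1276 CPM and replicates 3, 8 and 4 at 606, 602 and 601, and the same 4 mice held the highest values of Scd1. With the adipocyte marker score as a covariate, a fit added after the data were seen, 5 of 10 fatty acid genes were higher and 19.8% of all genes differed. In that fit the log2 fold change of Scd1 was 0.49 in place of 0.98 (adjusted p = 0.0489), the largest drop among the called members, that of Fasn 0.725 in place of 0.99 (adjusted p = 0.0297) and Acaca 0.56 in place of 0.68 (adjusted p = 0.0109). Scd2 (0.555, adjusted p = 0.0637), Srebf1 (0.456, adjusted p = 0.0798) and Sc5d (0.211, adjusted p = 0.125) did not pass, where the values without the covariate were 0.64, 0.54 and 0.25. The adipocyte score, set to a mean of 0 in controls, averaged 0.93 in GWI mice. This fit therefore cannot tell fat cell content and exposure apart, and the part of fat cells in the lipid genes was not tested.

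With the score of smooth muscle minus epithelium markers as a covariate, 23.9% of all genes differed. In that fit Acaca (0.75), Fasn (1.203) and Scd2 (0.83) were higher, and Aacs (0.585, adjusted p = 0.0542), Elovl6 (0.351, adjusted p = 0.179) and Scd1 (0.854, adjusted p = 0.125) did not pass. Of these, only Elovl6 had a clearly smaller log2 fold change than without the covariate. Fads1 turned from -0.38 to 0.40 (adjusted p = 0.0808), and Fads2 had 0.609 (adjusted p = 0.0687) in place of 0.20. The fatty acid arm median was 0.60, the mean of the Aacs and Fads2 values. Srebf1, Srebf2 and Scap were still higher. In the sterol arm Dhcr7 was higher (0.95), and Sc5d was lost (0.06, adjusted p = 0.732). There 4 sterol genes were lower that had not passed without the covariate: Acat2 (-0.60, adjusted p = 0.0217), Idi1 (-0.84, adjusted p = 0.0128), Cyp51 (-0.71, adjusted p = 0.00957) and Msmo1 (-0.72, adjusted p = 0.0193). The sterol arm median was then -0.11. Dhcr7, Srebf2, Scap, Acaca and Fasn were higher in all 30 other fits across genes.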

How the data were processed

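RNA-seq of colon explants from 17 mice (9 Control, 8 GWI) was analysed from the raw count of each gene that the authors deposited, as whole numbers without normalization. Per the submitters' processing notes and the study's methods, reads were trimmed with Trimmomatic 0.36, mapped with STAR 2.5.2b to GRCm38 and assigned to genes with featureCounts as unique hits. The annotation release and strand setting are not given in the sources used here. Total counts lay between 16293537 and 20741212.

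Counts were filtered with filterByExpr at its defaults, normalized by TMM, and the robust quasi-likelihood model of edgeR 4.0.16 was fitted in R 4.3.3, with group as the only term and Benjamini-Hochberg adjustment over 14146 genes. Genes with an adjusted p under 0.05 were called. Standard errors were derived from each fold change and its F value. CPM used TMM library sizes, except for genes that share sequence with members, where library size alone was used. Scores used log2 CPM with a prior count of 2. The labels give each sample a replicate number and a short code. Codes share first parts whose meaning is not defined, and these were not modelled, so p-values measure the spread between these samples. DESeq2 1.42.0, limma 3.58.1 (voom), other scalings, filters, thresholds and covariates, a replicate block, an offset for GC and length trends (mgcv 1.9.3), and 17 fits leaving out 1 mouse each were alternatives. The fits were tested on simulated data. Positions, exon lengths and shared sequence came from GENCODE annotation of GRCm38, and promoters from RefSeq (GRCm38.p6), with Python 3.11.15.

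The members and lists were chosen with earlier results of these data known, so no test of a list was made. All 33 members are given. Values of each group are shown for members with an adjusted p under 0.05 and for Sqle, Fasn, Srebf1, Srebf2 and Insig1, and Hmgcs1, Acat2 and Fads1 were added after their values were seen. Of the pathway lists and the marker lists described, called genes are named by p, at most 4 in each direction, and not every called gene is named.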

Additional observations from a re-analysis of the deposited data

Results flagged for a closer look

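In 13 of 70 groups tested (the control or GWI mice for 1 member or 1 arm score), the highest or lowest mouse stood further from its nearest neighbour than Dixon's 95% limit allows for a group of that size. Chance flags about 1 in 20 groups, and members share mice, so these are not independent.

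Control replicate 9 was lowest for Scap (34.2 CPM, next 50.8) and Fads2 (17.7 CPM, next 36.3) and highest for Stard4 (409.2 CPM, next 270.2). Control replicate 1 was highest for Sqle (175.6 CPM, next 116.8) and Elovl6 (171.8 CPM, next 112.1). Control replicate 8 was highest for Acat2 (72.8 CPM, next 43.9) and Lss (92.5 CPM, next 60.3). GWI replicate 5 was highest for Fdps (79.5 CPM, next 61.9) and Fdft1 (166.7 CPM, next 140.9). GWI replicate 8 was lowest for Lss (43.3 CPM, next 55.1), Stard4 (228.8 CPM, next 260.4) and Aacs (81.6 CPM, next 110.2). GWI replicate 7 was highest for Scd1 (385.9 CPM, next 231.6). What set these mice apart was not tested.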

How the results depend on the processing

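Counts of calls moved with the settings as follows. Over all genes, 3792 were called, and 8091 with limma-voom, 2241 with the replicate block, 1361 at an adjusted p under 0.01 and 342 at an unadjusted p under 0.05 with an absolute log2 fold change over 1. In the fatty acid arm, 6 of 10 were called, with 3 under the smooth muscle minus epithelium covariate, 3 at an adjusted p under 0.01 and 0 at the fold threshold. In the sterol arm, 2 of 19 were called. That count was 1 with DESeq2's size factors, without a filter, with the replicate block, with the adipocyte covariate and at an adjusted p under 0.01, 0 at the fold threshold, 9 with limma-voom, 5 with the muscle covariate (1 higher, 4 lower), and 5, all higher, without Control replicates 1 and 9. Leaving out 1 mouse at a time gave between 1 and 5 sterol calls. With upper-quartile factors the calls over all genes were 1214 higher and 2992 lower, and sterol genes called higher went from 2 to 1, with Acat2 lower. That was also so for the sterol arm with at least 10 counts in every mouse. Srebf1 was not called with upper-quartile factors (0.439, adjusted p = 0.0662) or with library size alone (0.498, adjusted p = 0.076). The sterol arm median, 0.105, was -0.109 with the muscle covariate and 0.008 with upper-quartile factors. It was 0.053 without Control replicate 6 and 0.168 without Control replicate 8. The fatty acid arm median, 0.537, lay between 0.441 and 0.626 in all fits.

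Single members changed sign as follows. With limma-voom, Idi1 had 0.12, Msmo1 0.17 and Ebp -0.017. With upper-quartile factors, Ebp had -0.043, Stard4 -0.072 and Acss2 -0.017. With the muscle covariate, Lss had -0.15, Tm7sf2 -0.11, Stard4 -0.28, Insig1 -0.10, Acss2 -0.215 and Fads1 0.40. Stard4 had -0.007 with the adipocyte covariate, and Msmo1 0.05 without Control replicates 1 and 9. Over the fits that left out 1 mouse, Fdps ranged from -0.166 to 0.017 and Stard4 from -0.021 to 0.136. The cause was not tested.

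The replicate numbers did not pair the mice: 1 of 8 same-numbered pairs had a correlation of deviations over 0.1, and 0 of 8 correlated best with its own number. With the replicate block Msmo1 had 0.041, and Sc5d (0.279, adjusted p = 0.0948) and Scd1 (0.866, adjusted p = 0.0841) were not called, with log2 fold changes near those without the block. The lowest count of any member in any mouse was 254.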
